A study of Homo sapiens with 5 samples.

Results

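A set of 10 genes that code for the mucus layer of epithelial cells and for its helpers was followed in BT474 cells: the mucins MUC1, MUC4, MUC13, MUC15, MUC16 and MUC20, the trefoil factors TFF1 and TFF3, and the anterior gradient proteins AGR2 and AGR3. They were chosen by name, and 9 of the 10 had a row among the 18512 genes of the deposited table. MUC20 was not analysed here. BT474 is an established breast cancer line of luminal type that carries an amplified HER2 gene. Persister cells were the BT474 cells left after 9 days of lapatinib at 2 µM, with drug and medium replaced every 3 days (3 libraries). Lapatinib blocks the kinase activity of HER2 and EGFR. Parental cells were BT474 cells kept at the same time without lapatinib (2 libraries), and both groups received 0.01% DMSO. Both groups came from 1 cell line, and no shorter exposure and no drug-free recovery was among the groups, so an effect of the drug itself and a trait of surviving cells cannot be told apart.

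Mucins are large glycoproteins whose serine- and threonine-rich repeats carry dense O-linked sugars. Some, such as MUC1, MUC4, MUC13, MUC15 and MUC16, span the plasma membrane, and others, such as MUC5B and MUC6, are secreted and form gels. Trefoil factors are small, disulfide-rich secreted peptides that are stored and released with mucins, and TFF1 is a classical estrogen receptor target in breast cancer cells. AGR2 and AGR3 belong to the protein disulfide isomerase family of the endoplasmic reticulum. In the mouse gut AGR2 is needed to make the secreted mucin MUC2, and in breast tumours both AGR genes are known as markers of the luminal, estrogen receptor-positive type.

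AGR2 and AGR3 are neighbours on chromosome 7 and went in opposite directions in persister cells, as did the membrane mucins MUC1 and MUC4, so the promoters of these 4 genes are given. The contrast of MUC1 and MUC4 has limits given below: MUC1 was almost level under another scaling of the groups, and MUC4 was at a very low level. RefSeq promoter sequences of build GRCh38.p14 were at hand for 6 of the 10 members. Each window holds the 250 bases before the annotated start, 5′ to 3′ on the minus strand, which is the strand of all 4 genes: chr7:16805000-16805249 for AGR2, chr7:16881984-16882233 for AGR3, chr1:155192916-155193165 for MUC1 (the first of 2 starts in that table) and chr3:195811930-195812179 for MUC4. Capitals mark matches on either strand to TATAAA (the TATA box), GGGCGG (the GC box), AGGTCA (a core element bound by nuclear receptors) and TGTTTNC (a loose form of the forkhead core TGTTTAC).
AGR2: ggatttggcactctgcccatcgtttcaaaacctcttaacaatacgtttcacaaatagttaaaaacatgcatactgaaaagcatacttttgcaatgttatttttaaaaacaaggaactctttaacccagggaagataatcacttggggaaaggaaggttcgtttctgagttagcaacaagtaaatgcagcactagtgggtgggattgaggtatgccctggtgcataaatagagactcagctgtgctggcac
AGR3: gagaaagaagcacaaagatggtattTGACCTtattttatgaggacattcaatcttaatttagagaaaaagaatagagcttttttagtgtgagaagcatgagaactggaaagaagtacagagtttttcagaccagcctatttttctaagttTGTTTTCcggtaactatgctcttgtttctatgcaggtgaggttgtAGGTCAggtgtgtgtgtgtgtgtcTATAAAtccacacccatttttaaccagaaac
MUC1: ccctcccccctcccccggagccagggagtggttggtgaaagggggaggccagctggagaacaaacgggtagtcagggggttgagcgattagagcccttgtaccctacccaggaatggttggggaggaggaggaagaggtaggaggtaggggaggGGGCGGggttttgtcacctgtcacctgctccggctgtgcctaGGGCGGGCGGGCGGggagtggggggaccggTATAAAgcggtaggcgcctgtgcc
MUC4: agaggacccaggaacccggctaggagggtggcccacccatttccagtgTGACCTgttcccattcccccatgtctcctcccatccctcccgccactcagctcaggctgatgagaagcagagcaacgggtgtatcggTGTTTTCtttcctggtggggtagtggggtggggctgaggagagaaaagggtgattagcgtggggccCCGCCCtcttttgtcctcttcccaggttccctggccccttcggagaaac
The AGR3 window held a TATA box at base -31 from the start, the nuclear receptor element on the coding strand at base -55 and on the other strand at base -225, and the loose forkhead form at base -100. The AGR2 window held no exact match to the 4 motifs, and variants of the TATA box were not searched. The MUC1 window held a TATA box at base -24 and 4 copies of the GC box, 3 of which overlap one after the other. The MUC4 window held 1 match each to the GC box, the nuclear receptor element and the loose forkhead form, and none to the TATA box. Both matches to the loose forkhead form read TGTTTTC. The forkhead core TGTTTAC was also searched and had no match in these windows. No other marked motifs overlapped. Of all 35116 RefSeq promoter windows of this length, 10.7% held the TATA box, 42.6% the GC box, 12.1% the nuclear receptor element and 15.5% the loose forkhead form. TGTTTAC was in 2.98% of them. These are matches of letters only, and no binding was measured.

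Every level below is FPKM, that is, fragments scaled to transcript length and to library size, with a single value per group that the authors made from its libraries. No SD or n can be attached to it, and the depth and the spread between replicates are unknown. A gene counts as tested when the q-value of the authors' deposited table was below 1, and as called when it was below 0.05. Differences are persister minus parental on the log2(FPKM + 1) scale, which understates changes of genes with low values. Over the 10160 tested genes with at least 1 FPKM in both groups the median difference was -0.12, and values relative to it are given beside the differences as deposited. Fewer cells expressing a gene and less RNA per cell cannot be told apart in such bulk libraries.

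The luminal label was set against its markers. KRT8 had 565 FPKM in persister and 730 FPKM in parental cells, and of the 11 luminal markers 10 were clearly present in both groups, the lowest being ESR1 in parental cells with 12.4 FPKM. The exception was ERBB2, the gene for HER2, which was listed at 0 in both groups although the line is known for its amplification, so nothing can be read for it. Of the 10 tested luminal markers 3 were called higher and 7 lower (4 higher and 6 lower after rescaling both groups to the same FPKM sum). Over all tested genes 30.9% were called higher and 39.0% lower as deposited, and after that rescaling 54.8% of all called genes were higher. EPCAM was called lower, with 89.6 FPKM in persister and 144 FPKM in parental cells. The 3 called higher were GATA3 (43.3 FPKM in persister and 14.1 FPKM in parental cells), ERBB3 (72.7 FPKM in persister and 35.7 FPKM in parental cells) and ESR1 (18.2 FPKM in persister and 12.4 FPKM in parental cells). The 6 fibroblast markers summed to 8.74 FPKM in persister and 13.5 FPKM in parental cells, nearly all of it COL1A1 with 8.73 FPKM in persister and 13.4 FPKM in parental cells. Its call was lower, and COL3A1, with 0.00766 FPKM in persister and 0.0164 FPKM in parental cells, was not tested. The 6 immune markers summed to 6.15 FPKM in persister and 7.22 FPKM in parental cells, mostly LYZ and CD68, neither of which was called. The 5 endothelial markers summed to 0.138 FPKM in persister and 1.10 FPKM in parental cells, and CDH5, with 0.0441 FPKM in persister and 0.592 FPKM in parental cells, and VWF, with 0.0884 FPKM in persister and 0.487 FPKM in parental cells, were called lower. The persister value of CDH5 lies below 0.0656 FPKM, the lowest level that sufficed for the authors' test, so CDH5 entered it through parental cells alone. PTPRC, the defining immune gene, had 0.00588 FPKM in persister and 0.00138 FPKM in parental cells, and the fibroblast gene DCN had 0.00205 FPKM in persister cells and was listed at 0 in parental cells. The part of these marker levels in the results below was not tested.

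Of the 9 members with a row, 6 were tested, and all 6 were called: TFF1, TFF3, AGR2 and MUC1 were lower and AGR3 and MUC4 higher in persister cells. Among all 13617 tested genes, 69.9% were called, 39.0% lower and 30.9% higher, so being called is the common case in this table. The falls of TFF3 and AGR2 exceeded 1 on the log2 scale, and 6.01% of tested genes were called lower with a fall of at least 1. No member rose by that much, whereas 2.98% of tested genes were called higher with a rise of at least 1. MUC13, MUC15 and MUC16 stayed below the level at which the authors' test was run, with at most 0.0109 FPKM.

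**Figure D1:**
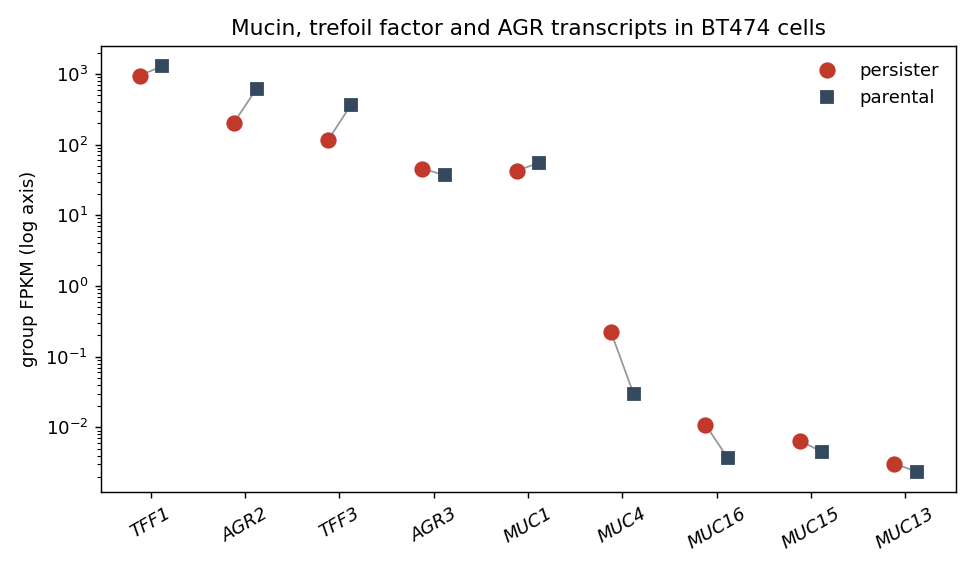
Group FPKM values (log axis) of the 9 members with a row, persister as circles and parental as squares, with 1 value per group and no error bars because the table holds none per library. TFF1, AGR2 and TFF3 lead in both groups, AGR3 and MUC1 follow at 36.6 to 55.3 FPKM, and the other mucins reach at most 0.221 FPKM.

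TFF1 was the most abundant member in both groups. It had 946 FPKM in persister and 1281 FPKM in parental cells and ranked 8 in persister and 7 in parental cells among all genes of the table. The difference was -0.44, or -0.32 relative to the median (q = 4.46e-11 in the authors' deposited table), and 22.6% of tested genes had a lower one. Its transcript is short, at 551 nucleotides in GENCODE 29, against 1109 for TFF3, 1778 for AGR2 and 749 for AGR3, and FPKM divides by this length. TFF1 remained among the 10 most abundant transcripts of persister cells.

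TFF3, a trefoil peptide that protects and repairs mucosal surfaces, was lower by a wider margin. It had 116 FPKM in persister and 360 FPKM in parental cells, a ratio of 0.323. The difference was -1.62, or -1.51 relative to the median (q listed as 0 in the authors' deposited table), and 2.18% of tested genes had a lower one. TFF1 outnumbered TFF3 8.14-fold in persister and 3.56-fold in parental cells on the FPKM scale.

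TFF2, the remaining trefoil gene, lies between TFF3 and TFF1 on chromosome 21. It had 0.859 FPKM in persister and 1.60 FPKM in parental cells and was called lower, by 0.49 on the log2 scale (q = 2.85e-04 in the authors' deposited table). All 3 trefoil genes were therefore called lower, as were 39.0% of all tested genes. With both groups rescaled to the same FPKM sum, the differences were -0.080 for TFF1, -0.43 for TFF2 and -1.27 for TFF3. TFF2 was at a low level in both groups. The genes that flank the cluster were called higher: TMPRSS3, a membrane serine protease next to TFF1, had 12.8 FPKM in persister and 8.69 FPKM in parental cells. ABCG1, a sterol transporter next to TFF3, had 15.9 FPKM in persister and 8.28 FPKM in parental cells.

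AGR2 fell about as far as TFF3. It had 203 FPKM in persister and 615 FPKM in parental cells, a ratio of 0.330, and ranked 144 among all genes in persister cells, against 41 in parental cells. The difference was -1.59, or -1.48 relative to the median (q listed as 0 in the authors' deposited table), and 2.32% of tested genes had a lower one.

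AGR3, the closest relative of AGR2, was called higher instead. It had 45.7 FPKM in persister and 36.6 FPKM in parental cells, a difference of 0.31, or 0.43 relative to the median (q = 0.00113 in the authors' deposited table). AGR2 exceeded AGR3 4.44-fold in persister and 16.8-fold in parental cells. The gene on the other side of AGR2 is TSPAN13, a tetraspanin, which had 107 FPKM in persister and 327 FPKM in parental cells and was called lower by 1.60. Beyond AGR3 lies AHR, the aryl hydrocarbon receptor, with 8.75 FPKM in persister and 8.80 FPKM in parental cells and no call (q = 0.932 in the authors' deposited table). Calls in both directions and a gene without a call thus stood side by side in this stretch of chromosome 7.

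**Figure D2:**
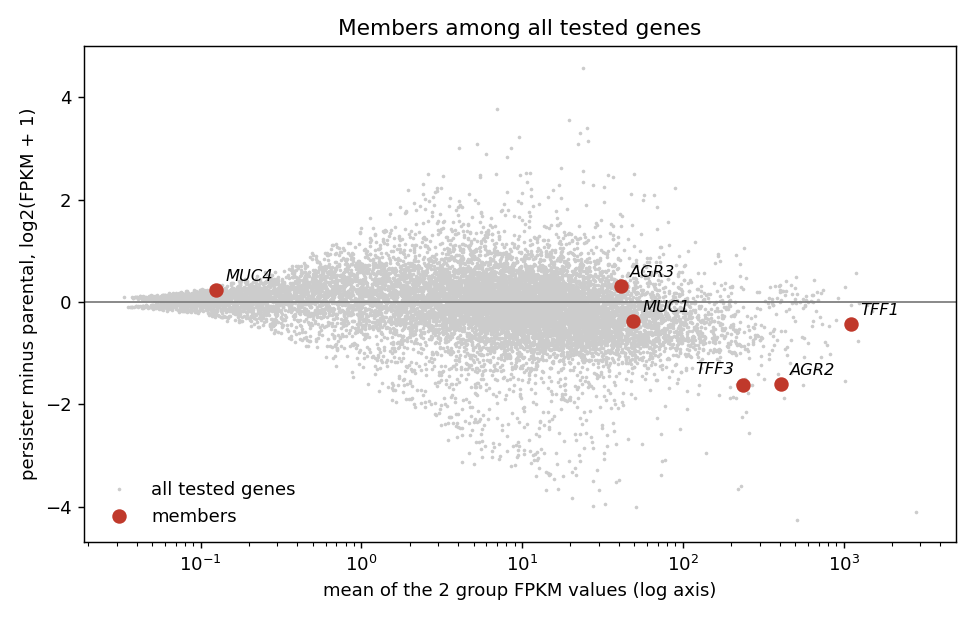
Difference of persister minus parental cells on the log2(FPKM + 1) scale against the mean of both group FPKM values (log axis), with all 13617 tested genes in grey and the 6 tested members in red. TFF3 and AGR2 lie at -1.62 and -1.59, while TFF1, MUC1, MUC4 and AGR3 lie between -0.44 and 0.31.

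Among the mucins, MUC1 was the only member above 1 FPKM. This membrane mucin, whose shed part is the tumour antigen CA 15-3, had 42.8 FPKM in persister and 55.3 FPKM in parental cells. The difference was -0.36, or -0.25 relative to the median (q = 2.52e-05 in the authors' deposited table). The table combines 20 MUC1 transcripts of 516 to 1836 nucleotides (lengths from GENCODE 29) into 1 value, so a shift between splice forms could enter it and was not tested. In persister cells AGR3 and MUC1 were at nearly the same level, with a ratio of AGR3 to MUC1 of 1.07, against 0.663 in parental cells. Whether these neighbours in level differ beyond the spread of the libraries cannot be judged from group values.

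MUC4, a membrane mucin that binds HER2 at the cell surface, was called higher at a very low level. It had 0.221 FPKM in persister and 0.0294 FPKM in parental cells, a ratio of 7.53 (q = 1.40e-09 in the authors' deposited table). On the log2(FPKM + 1) scale the difference was only 0.25, and it was 2.55 with a pseudocount of 0.01. The parental value lies below 0.0656 FPKM, the lowest level that sufficed for the authors' test, so MUC4 entered that test through persister cells alone. MUC4 remained far below MUC1, which exceeded it 193-fold in persister and 1883-fold in parental cells.

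The other membrane mucins had the lowest values of the set. MUC16, which carries the antigen CA125, had 0.0109 FPKM in persister and 0.00366 FPKM in parental cells. MUC15 had 0.00648 FPKM in persister and 0.00451 FPKM in parental cells, and MUC13, best known from the gut, 0.00309 FPKM in persister and 0.00238 FPKM in parental cells. None was tested by the authors, and with the depth unknown no change can be read. MUC15 lies inside the gene ANO3, from which its reads could not be separated by strand in these libraries. ANO3 had 0.000718 FPKM in persister cells and was listed at 0 in parental cells.

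The 9 members together summed to 1354 FPKM in persister and 2348 FPKM in parental cells, which is 0.520% of all FPKM of the table in persister and 0.705% in parental cells. TFF1 made up 69.9% of that sum in persister and 54.6% in parental cells. AGR2 made up 15.0% in persister and 26.2% in parental cells, and TFF3 8.58% in persister and 15.3% in parental cells. MUC1 supplied 3.16% in persister and 2.35% in parental cells. TFF1 thus held a larger share of the set in persister cells.

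How the groups are scaled to each other mattered most for the smaller changes. The FPKM of all rows summed to 260213 in persister and 333324 in parental cells, a difference of 0.36 on the log2 scale. With each group rescaled to the same sum, MUC1 (-0.013) and TFF1 (-0.080) were almost level between the groups, whereas TFF3 (-1.27) and AGR2 (-1.24) stayed lower and AGR3 (0.67) and MUC4 (0.77) higher. The same rescaling changed the share of called genes that were higher from 44.2% as deposited to 54.8%.

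**Figure D3:**
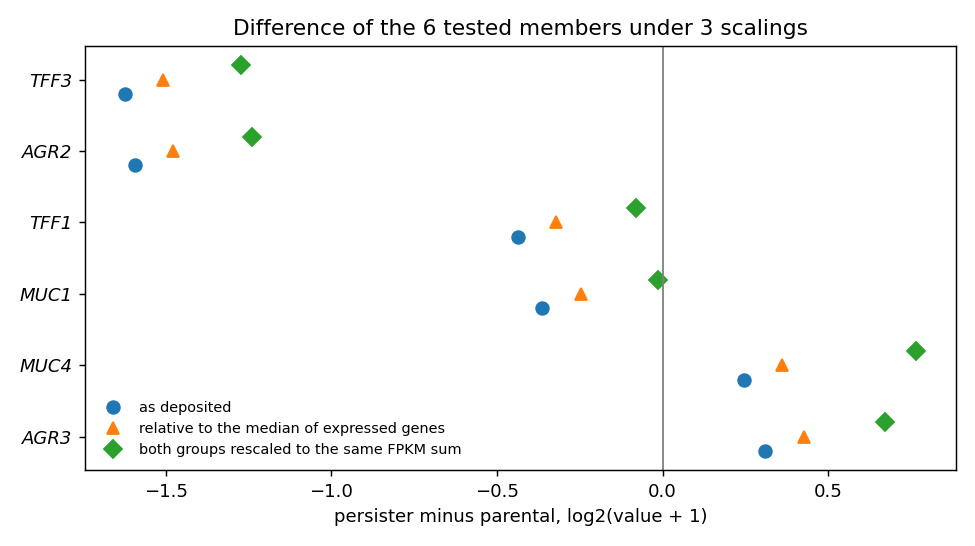
Persister minus parental differences of the 6 tested members as deposited, relative to the median of tested genes with at least 1 FPKM in both groups, and with both groups rescaled to the same FPKM sum. No member changes sign, but MUC1 and TFF1 lie at -0.013 and -0.080 after rescaling.

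The list of other mucins was called in both directions, with 3 higher and 4 lower among 7 tested (14 of 18 had a row). Its median was -0.64, against -0.038 over all tested genes. The 4 lower were MUCL1, MUC5B, MUC6 and CD164, and CD164 holds the list median. The 3 higher were MCAM, OVGP1 and PODXL, so no tested gene of this list with MUC in its symbol was higher. After rescaling to the same sum the counts were unchanged, the list median was -0.29 and that of all tested genes 0.24, and rescaled list medians below are to be read against this 0.24. Counts as deposited, here and in the lists below, are to be read against all tested genes, of which 69.9% were called, 39.0% lower and 30.9% higher. Counts after rescaling are to be read against 5216 higher and 4298 lower among all 13617 tested genes, that is, 54.8% of called genes higher. MUCL1, a small breast mucin, had 50.1 FPKM in persister and 973 FPKM in parental cells. The gel-forming MUC5B had 3.38 FPKM in persister and 17.2 FPKM in parental cells, and the gel-forming MUC6 21.0 FPKM in persister and 45.5 FPKM in parental cells. MCAM, a cell adhesion molecule also named MUC18, was called higher at 1.11 FPKM in persister and 0.0763 FPKM in parental cells. All of these had a q listed as 0 in the authors' deposited table. OVGP1, a secreted mucin-type glycoprotein of the oviduct, was called higher at 3.00 FPKM in persister and 1.30 FPKM in parental cells (q listed as 0 in the authors' deposited table). The intestinal MUC2 was not tested, with 0.00151 FPKM in persister and 0.0607 FPKM in parental cells. Repeats within mucin genes are hard to map, and the sources used here do not say how reads with several matches were counted.

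Relatives of AGR2 and AGR3 in the disulfide isomerase family were mostly lower, with 12 lower and 3 higher among 15 tested and a median of -0.50. Over all tested genes 39.0% were called lower and 30.9% higher. After rescaling to the same sum the list had 10 lower and 5 higher and a median of -0.15, where 54.8% of all called genes were higher. PDIA5 had 6.11 FPKM in persister and 13.9 FPKM in parental cells, DNAJC10, a reductase of misfolded proteins, 20.2 FPKM in persister and 36.0 FPKM in parental cells, and TMX4 1.84 FPKM in persister and 4.32 FPKM in parental cells. PDIA2, an isomerase best known from the pancreas, was called higher at 3.16 FPKM in persister and 1.11 FPKM in parental cells. None of these falls reached that of AGR2.

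Enzymes that build mucin-type O-glycans had 12 lower and 2 higher among 21 tested and a median of -0.28, beside 39.0% lower and 30.9% higher over all tested genes. After rescaling to the same sum, 9 were lower and 5 higher with a median of 0.0021, where 54.8% of all called genes were higher. The 12 lower include B3GNT3 (0.0116 FPKM in persister and 0.225 FPKM in parental cells), which holds the list median as deposited. They also include ST6GALNAC1 (0.0252 FPKM in persister and 0.127 FPKM in parental cells). Both persister values lie below 0.0656 FPKM, so these genes entered the authors' test through parental cells alone. GALNT7, one of the transferases that attach the first sugar, had 8.92 FPKM in persister and 53.5 FPKM in parental cells. The related GALNT12 had 2.52 FPKM in persister and 8.98 FPKM in parental cells, and GALNT6 11.1 FPKM in persister and 25.1 FPKM in parental cells. ST3GAL1, which caps core O-glycans with sialic acid, had 6.53 FPKM in persister and 43.3 FPKM in parental cells. C1GALT1, which extends the first sugar and was picked after its values were seen, had 3.68 FPKM in persister and 3.93 FPKM in parental cells and was not called (q = 0.379 in the authors' deposited table).

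Transcription factors known for secretory and mucin genes went both ways, with 5 higher and 7 lower among 15 tested. Over all tested genes the shares were 30.9% higher and 39.0% lower. The list median was -0.052 as deposited, 0.064 relative to the median and 0.30 after rescaling to the same sum. After that rescaling 6 were higher and 6 lower, where 54.8% of all called genes were higher. SPDEF, which drives goblet cell and secretory programmes, had 65.4 FPKM in persister and 161 FPKM in parental cells. XBP1, a factor of the unfolded protein response and of secretory cells, had 282 FPKM in persister and 643 FPKM in parental cells, and HIF1A, the hypoxia factor, 31.1 FPKM in persister and 71.9 FPKM in parental cells. GATA3, a luminal factor, was called higher at 43.3 FPKM in persister and 14.1 FPKM in parental cells.

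Estrogen receptor target genes other than TFF1 had 10 higher and 6 lower among 19 tested, beside 30.9% higher and 39.0% lower over all tested genes. Their median was 0.21 as deposited and 0.57 after rescaling to the same sum. After that rescaling 11 were higher and 5 lower, where 54.8% of all called genes were higher. OLFM1 had 20.6 FPKM in persister and 8.37 FPKM in parental cells. SERPINA1 was called lower at 3.64 FPKM in persister and 11.8 FPKM in parental cells, and cyclin D1 (CCND1) at 50.4 FPKM in persister and 110 FPKM in parental cells. XBP1 belongs to this list as well. EGR3, also called lower, had 0.0476 FPKM in persister and 0.362 FPKM in parental cells. Its persister value lies below 0.0656 FPKM, so EGR3 entered the authors' test through parental cells alone. The receptor gene ESR1 was called higher at 18.2 FPKM in persister and 12.4 FPKM in parental cells. TFF1 itself was lower as deposited, and its difference from the list was not tested.

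Surface and secreted partners of these proteins had 5 higher and 4 lower among 13 tested, beside 30.9% higher and 39.0% lower over all tested genes. Their median was -0.010 as deposited and 0.29 after rescaling. CXCR4, a chemokine receptor reported to respond to TFF2, had 2.25 FPKM in persister and 11.7 FPKM in parental cells, and CTNND1 (p120 catenin) 105 FPKM in persister and 142 FPKM in parental cells. ERBB3, the HER3 gene, was called higher at 72.7 FPKM in persister and 35.7 FPKM in parental cells, as was FCGBP, a mucus protein that binds trefoil factors, at 0.607 FPKM in persister and 0.186 FPKM in parental cells.

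The machinery that releases mucin granules had 7 higher and 5 lower among 16 tested, with a median of 0.0040. Of all tested genes 30.9% were called higher and 39.0% lower. After rescaling, 9 of the list were higher and 3 lower with a median of 0.34. That rescaling shifted all genes upward: 54.8% of all called genes were then higher, with a median of 0.24 over all tested genes. MARCKS, which links granules to the actin cortex, had 48.2 FPKM in persister and 139 FPKM in parental cells. The fusion ATPase NSF had 14.2 FPKM in persister and 23.0 FPKM in parental cells, and the granule GTPase RAB3D 35.3 FPKM in persister and 55.5 FPKM in parental cells. The vesicle SNARE VAMP2 was called higher at 18.9 FPKM in persister and 11.3 FPKM in parental cells.

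**Figure D4:**
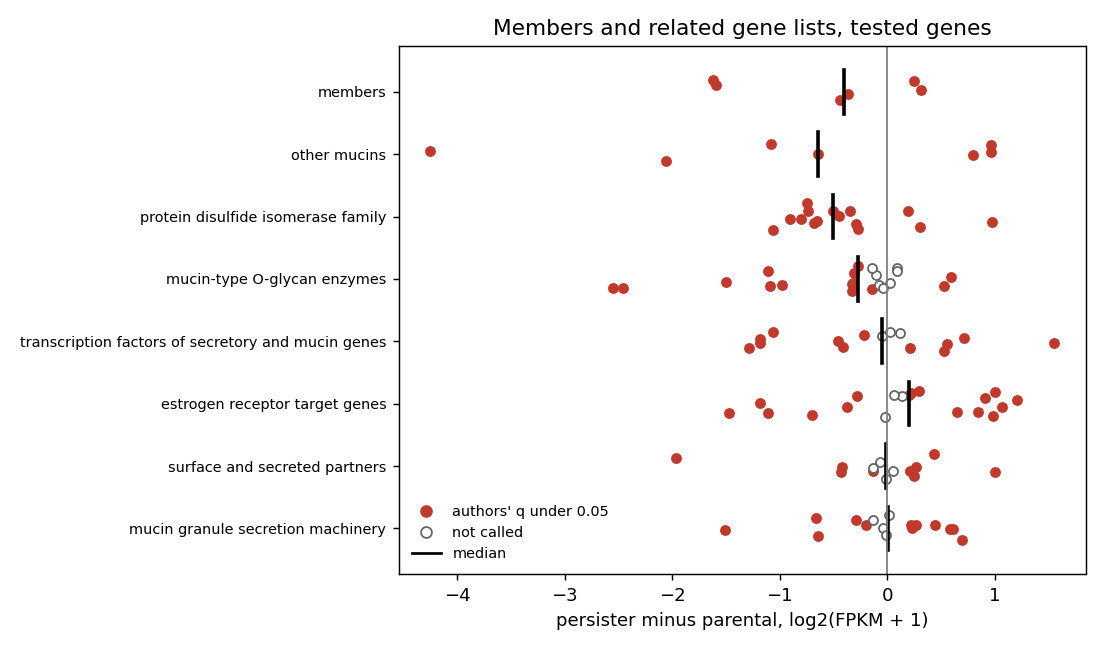
Persister minus parental differences on the log2(FPKM + 1) scale of the tested genes in each list, with filled points for a q below 0.05 in the authors' table, open points for genes not called and a bar at the median. The other mucins reach -4.25 (MUCL1), and the medians run from -0.64 for the other mucins to 0.21 for the estrogen receptor targets.

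Of 8 intestinal goblet cell markers 4 were tested. FCGBP was higher and TFF2, SPINK4 and ZG16 lower, none of them above the 1.60 FPKM of TFF2 in parental cells. Over all tested genes the shares called were 30.9% higher and 39.0% lower. SPINK4 had 0.356 FPKM in persister and 1.51 FPKM in parental cells, and ZG16 0.225 FPKM in persister and 0.585 FPKM in parental cells. ATOH1, the factor that specifies goblet cells in the gut, had 0.0232 FPKM in persister and 0.00389 FPKM in parental cells and was not tested.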

How the data were processed

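Polyadenylated RNA from BT474 cells was sequenced on an Illumina HiSeq instrument from libraries that do not keep strand, per the labels' protocols. Tools named in the submitters' processing notes are TopHat2 2.0.6, Cuffdiff 2.0.2, Cufflinks and CASAVA 1.8, with build hg18. The authors deposited 1 FPKM value per gene and group, a q-value of their own comparison and a fold change (no sources used here give settings or the scaling between libraries). The 18803 rows hold neither counts nor library values, so no spread, interval or test of individual libraries could be had, and a planned limma test was not run. The authors' q-value stands in for it.

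Where a symbol stood on several rows, the row of highest mean FPKM was used (no member had more than 1 row), which left 18512 genes. Rows whose deposited ratio and q-value were set to 1 although the FPKM values differed by more than 0.6% (145 rows) were taken as having no estimate. The pseudocount was 1 FPKM. Counting was tested on simulated data. The members and gene lists were chosen with earlier results of these data known. Named genes were all members, their overlapping or direct protein-coding neighbours, and for each list up to 4 called genes with the largest difference (2 by level where fewer than 2 were called). KRT8, ERBB2, ESR1, PTPRC, DCN, MUC2, OVGP1, CD164, PODXL, ATOH1, C1GALT1, B3GNT3, ST6GALNAC1, EGR3, PGR, SYTL2 and DAG1 were named outside this rule, after their values were seen. Neighbours and promoters came from RefSeq (GRCh38.p14), and transcript lengths from GENCODE 29. The authors' build differs, so the promoter windows carry the only positions given, in GRCh38.p14. Of 12 motifs searched, 4 are shown, chosen after the matches were seen. Python 3.11.15, pandas 2.3.3 and numpy 2.4.6 were used.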

Additional observations from a re-analysis of the deposited data

How the results depend on the processing

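Alternatives were other pseudocounts, other scalings, a stricter q-value, a minimum difference, a minimum level and summed rows. Of these, only the scalings could have reversed the direction of a member. The 6 called members kept theirs there, though MUC1 (-0.013) and TFF1 (-0.080) were almost level after rescaling to the same sum. A q-value below 0.01 gave the same counts, 2 higher and 4 lower. With a difference of at least 1 required, 0 members were higher and 2 lower (TFF3 and AGR2), because the other differences are smaller. With at least 1 FPKM required in 1 or both groups, 1 was higher (AGR3), since MUC4 is below that level. A check of the counts after rescaling to the same sum, added after the data were seen, gave 2 higher and 4 lower. The value for MUC4 (0.25) was 1.31 with a pseudocount of 0.1. Rescaling to a sum of 1000000 also lowers the effective pseudocount, which bears on its value of 0.77 there. The summed level of the members was 5204 in persister and 7045 in parental cells when FPKM was rescaled to a sum of 1000000, and without TFF1 it was 408 FPKM in persister and 1067 FPKM in parental cells.

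With a pseudocount of 0.1, list medians were -0.64 for other mucins, -0.51 for the disulfide isomerase family, -0.34 for O-glycan enzymes, -0.053 for transcription factors, 0.23 for estrogen receptor targets, -0.010 for partners and 0.0028 for the secretion machinery. With at least 1 FPKM required, they were -0.32 for O-glycan enzymes, 0.21 for estrogen receptor targets, -0.038 for partners and 0.018 for the secretion machinery. No paired analysis was possible because the table holds 1 value per group. For the same reason no library could be left out. The unknown depth limits what can be said of MUC4, MUC13, MUC15 and MUC16.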

Other observations

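Some genes beside or linked to the members had different FPKM values but no estimate in the authors' deposited table (ratio and q-value set to 1), so no call can be given for them. THBS3, the thrombospondin gene next to MUC1, had 18.6 FPKM in persister and 4.29 FPKM in parental cells, while TRIM46 on the other side of MUC1 had 1.19 FPKM in persister and 1.18 FPKM in parental cells (q = 0.949 in the authors' deposited table). PGR, the progesterone receptor gene and an estrogen receptor target like TFF1, had 128 FPKM in persister and 21.9 FPKM in parental cells. SYTL2, a granule docking protein, had 12.7 FPKM in persister and 15.1 FPKM in parental cells, and DAG1, the dystroglycan gene, 40.1 FPKM in persister and 36.9 FPKM in parental cells.

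The neighbours of MUC13, MUC15 and MUC16, the members with the lowest values, ranged widely in level. ITGB5, an integrin gene next to MUC13, was called lower at 45.7 FPKM in persister and 51.4 FPKM in parental cells (q = 0.0214 in the authors' deposited table), and HEG1 on its other side was called higher at 0.731 FPKM in persister and 0.158 FPKM in parental cells. LUZP2, next to MUC15, was called higher at 0.142 FPKM in persister and 0.00875 FPKM in parental cells. Its parental value lies below 0.0656 FPKM, so LUZP2, like MUC4, entered the authors' test through persister cells alone. SLC5A12, on the other side of MUC15, had 0.00145 FPKM in persister and 0.000567 FPKM in parental cells and was not tested. MBD3L1 and OR1M1, on either side of MUC16, were listed at 0 in both groups.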
